A study of Rattus norvegicus with 6 samples.

Results

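The CXC chemokines are small proteins, most of them secreted, that carry a pair of cysteines with 1 residue between them and guide leukocytes along a gradient. The genes followed here were Cxcl1, Cxcl2, Cxcl6, Cxcl9, Cxcl10, Cxcl11, Cxcl12, Cxcl13, Cxcl16 and Pf4. They were found by matching the transcript accession of each array probe to the rat genes of RefSeq. All 10 genes were found, on 11 of 30367 probes, among 15443 genes with a name, and Cxcl12 alone had 2 probes. Total RNA of liver was hybridised to 6 arrays of 1 colour, 1 array per rat. The 3 fibrosis arrays came from rats whose liver fibrosis had been produced by bile duct ligation, which stops bile from leaving the liver. The 3 normal arrays came from normal rats. Strain, sex, age, the time since ligation and whether the normal rats had a sham operation are not given in the sources used here, and the basis on which the animals were picked for the arrays is not given either.

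Chemokines bind receptors of the G protein coupled class on the cells they attract, and the CXC family falls into groups by receptor. Cxcl1, Cxcl2 and Cxcl6 bind Cxcr2 and draw neutrophils. Cxcl9, Cxcl10 and Cxcl11 are induced by interferon gamma and bind Cxcr3 on activated T cells and NK cells. Cxcl12 binds Cxcr4 and Ackr3 and keeps stem cells and lymphocytes in their niches, Cxcl13 binds Cxcr5 and gathers B cells into follicles, and Cxcl16 is made as a transmembrane protein whose receptor is Cxcr6. Pf4 (platelet factor 4) is stored in platelet granules. In injured liver these genes are known to be expressed by hepatocytes, bile duct epithelium, macrophages, endothelium and stellate cells.

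In the whole liver samples, Cxcl1, Cxcl6, Cxcl16 and Pf4 were higher in fibrosis, and Cxcl11 and Cxcl12 were lower. The calls for Cxcl6 and Cxcl16 held under every other setting that tested them. Those for Cxcl1, Pf4, Cxcl11 and Cxcl12 were lost under some settings, as given for each gene below. Cxcl11 could be tested only by keeping spots that the scanner software had marked. The differences for Cxcl2, Cxcl9, Cxcl10 and Cxcl13 did not pass the test. Because the RNA came from tissue with many cell types, fewer cells of a type and less RNA per cell cannot be told apart.

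Most of the genes share a rat chromosome. Cxcl13, then Cxcl11, Cxcl10 and Cxcl9, then Cxcl2, Cxcl1, Pf4 and Cxcl6 lie in that order on chromosome 14, while Cxcl12 is on chromosome 4 and Cxcl16 on chromosome 10. Promoter windows from RefSeq on the assembly GRCr8, 250 bases before to 50 bases after the annotated start, were given for 9 of the 10 genes, all but Pf4. The windows were searched on both strands for 3 motifs. These were GGNNTTTCC, of the NF-kB type, GAAANNGAA, of the interferon response type, and TTCNNNGAA, of the STAT type. The NF-kB type motif was found in 6 of 9 windows, those of Cxcl1, Cxcl2, Cxcl6, Cxcl9, Cxcl10 and Cxcl11, while 6.05% of 33469 rat promoter windows hold it. The interferon response type motif was found for 1 gene, Cxcl10 (9.71% of all windows), and the STAT type motif for 2, Cxcl9 and Cxcl11 (8.87% of all windows). A match is a description of the letters and shows no binding.

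The 250 bases before the start are shown for 3 neighbours on chromosome 14, Cxcl1, Cxcl2 and Cxcl6, which share the NF-kB type motif at like distances, and for Cxcl11, which holds the motif too and was lower in fibrosis. Capitals mark the motif matches, each line reads 5′ to 3′ along the strand of the gene, and the sequences are those of RefSeq on GRCr8. The window of Cxcl1 is chr14:17479322-17479571 on the minus strand, that of Cxcl2 is chr14:17467256-17467505 on the minus strand, that of Cxcl6 is chr14:17596418-17596667 on the minus strand, and that of Cxcl11 is chr14:15973478-15973727 on the plus strand.
Cxcl1: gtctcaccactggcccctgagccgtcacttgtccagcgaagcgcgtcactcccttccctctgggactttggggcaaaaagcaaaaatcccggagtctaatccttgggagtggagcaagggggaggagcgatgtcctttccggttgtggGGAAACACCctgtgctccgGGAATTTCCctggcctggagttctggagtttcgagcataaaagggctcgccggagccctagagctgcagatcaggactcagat
Cxcl2: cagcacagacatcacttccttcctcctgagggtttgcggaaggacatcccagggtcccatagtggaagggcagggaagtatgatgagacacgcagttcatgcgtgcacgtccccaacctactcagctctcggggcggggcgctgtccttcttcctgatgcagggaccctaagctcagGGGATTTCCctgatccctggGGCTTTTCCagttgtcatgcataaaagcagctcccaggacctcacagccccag
Cxcl6: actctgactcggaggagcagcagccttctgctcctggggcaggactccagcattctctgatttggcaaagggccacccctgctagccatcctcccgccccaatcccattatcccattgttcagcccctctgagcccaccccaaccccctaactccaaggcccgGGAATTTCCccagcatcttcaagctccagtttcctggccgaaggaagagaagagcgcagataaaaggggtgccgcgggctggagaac
Cxcl11: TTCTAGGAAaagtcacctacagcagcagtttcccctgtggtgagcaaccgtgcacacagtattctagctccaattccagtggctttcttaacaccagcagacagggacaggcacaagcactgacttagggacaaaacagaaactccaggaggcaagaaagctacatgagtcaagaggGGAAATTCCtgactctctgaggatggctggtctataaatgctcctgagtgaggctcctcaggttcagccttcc

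Cxcl1 and Cxcl6 held the same 9 letters, GGAATTTCC, with the first base 83 and 87 bases before the start. Cxcl1 held another match, GGAAACACC, at 102 bases. In Cxcl2 the matches GGGATTTCC and GGCTTTTCC began 73 and 53 bases before the start. Cxcl11 held GGAAATTCC at 73 bases and the STAT type match TTCTAGGAA at 250 bases. Members with the NF-kB type motif thus included genes that were higher in fibrosis, a gene that was lower and genes whose difference did not pass the test.

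Levels are given as the log2 of the processed spot signal minus the 75th percentile of the same array, so a negative level is below that percentile, and differences are fibrosis minus normal on the log2 scale. That percentile was 4840 to 6401 signal units on the fibrosis arrays and 3755 to 4386 on the normal arrays, 68.8% to 78.0% and 67.2% to 70.0% of spots were well above background, and 0 spots were saturated. Each probe has its own brightness, so levels are compared between arrays and not between genes. The scanner software marked 18.8% to 33.0% of spots on the fibrosis arrays and 24.0% to 35.2% on the normal arrays as uneven or as outliers. These marked spots were left out first, which left 8 of the 10 genes with enough arrays. Cxcl10 then had an unmarked spot on fibrosis array 2 alone and Cxcl11 on normal array 3 alone, so both were read with marked spots kept. The levels by array below are with marked spots kept, since they then exist for all 6 arrays. The threshold for a call was 0.05 on the limma p adjusted by Benjamini-Hochberg over all genes tested.

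Over all genes, 1352 of 7433 (18.2%) were called higher and 429 (5.77%) lower with marked spots left out, and 1720 of 10864 (15.8%) were higher and 991 (9.12%) lower with them kept. The counts of called pathway genes and markers given below are to be read beside these shares. Of the chemokine genes, 4 of the 8 tested were higher and 1 lower with marked spots left out, and 4 of 10 were higher and 2 lower with them kept. The median difference over the genes tested was 1.11 with marked spots left out, against 0.03 over all genes, and 0.78 with them kept, against -0.07. The fibrosis and normal arrays did not overlap for 6 of the 10 genes, with marked spots kept, and the same held for 42.9% of all genes tested. Both counts rest on few genes. Leaving out 1 array also left fewer genes to test where marked spots were left out. Without normal array 1 or normal array 3, 1 of 6 genes tested was higher, and Cxcl1 and Cxcl16 were not tested. Without fibrosis array 1, 2 of 5 were higher, and Cxcl1, Cxcl9 and Cxcl12 were not tested. Without fibrosis array 2, 2 of 6 were higher, and Cxcl1 and Cxcl9 were not tested. The lower call, Cxcl12, did not pass when any 1 normal array was left out, and the gene was not tested without fibrosis array 1 or fibrosis array 3. Keeping marked spots and leaving out 1 array gave 2 to 5 genes higher and 1 to 2 lower. The 2 higher came without normal array 3, and the 1 lower came without any 1 normal array.

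**Figure D1:**
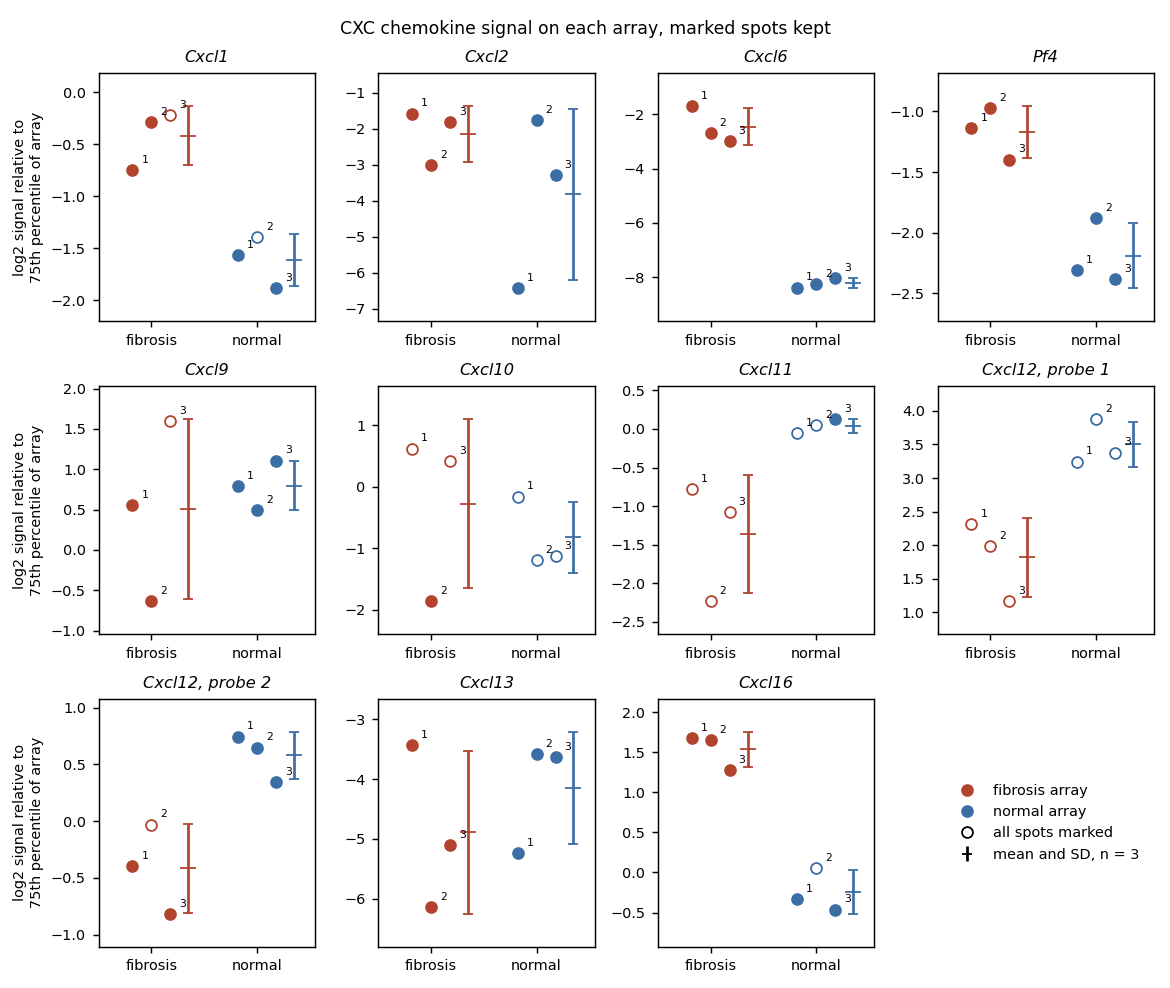
Log2 signal relative to the 75th percentile of the array (vertical axis) for each CXC chemokine probe on the 3 fibrosis and 3 normal arrays, numbered by array, with marked spots kept. Open points had all their spots marked, and bars give the mean and SD of the 3 arrays. The groups do not overlap for Cxcl1, Cxcl6, Pf4, Cxcl11, Cxcl12 (both probes) and Cxcl16.

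Cxcl6, a neutrophil attractant, was measured above background in fibrosis and not in normal liver. Its levels were -1.69, -2.69 and -2.98 on the fibrosis arrays, against -8.39, -8.27 and -8.04 on the normal arrays. The probe was well above background on all 3 fibrosis arrays and on 0 of the 3 normal arrays, so its fold is a lower bound. Mean levels were -2.45 in fibrosis and -8.23 in normal liver, a difference of 5.78 (adjusted p = 3.82e-05, limma). That p belongs to the difference from normal signals not above background. The bound, at least 12.4-fold higher in fibrosis, was not tested itself. The gene was called under each scaling, background correction, filter and left out array that gave it a value, with log2 differences of 3.38 to 6.25. The lowest, 3.38, came with another background correction (normexp) and is below the bound.

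Cxcl1, a strong neutrophil attractant, had levels of -0.74, -0.28 and -0.22 on the fibrosis arrays, against -1.56, -1.40 and -1.88 on the normal arrays. Every fibrosis array lay above every normal array. The difference was 1.24 ± 0.34 (SE; adjusted p = 0.0445) with marked spots left out, where fibrosis array 3 and normal array 2 had no unmarked spot, and 1.20 ± 0.26 (adjusted p = 0.0114) with them kept. With marked spots left out the call was lost with quantile normalization (1.03, adjusted p = 0.0856), with the array median as the scale (0.83, adjusted p = 0.122), with no filter on dim probes (adjusted p = 0.101), with probes fitted one by one (adjusted p = 0.0552) and without normal array 2 (adjusted p = 0.0683). With them kept it was lost without normal array 3 (1.06, adjusted p = 0.0661).

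Cxcl2, a close relative of Cxcl1 that macrophages release, had levels of -1.57, -3.02 and -1.82 on the fibrosis arrays, against -6.43, -1.76 and -3.28 on the normal arrays. The groups overlapped, and normal array 1 stood far below the other arrays and was not well above background. The difference of 1.69 ± 1.03 did not pass the test (adjusted p = 0.285). Its SD was 0.772 in fibrosis and 2.38 in normal liver (n = 3 each), where the median SD over all genes was 0.408 and 0.222. Without normal array 1 the difference was 0.38, the lowest when 1 array was left out, and it did not pass the test under any alternative run.

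Pf4, the platelet granule chemokine that lies between Cxcl1 and Cxcl6, had levels of -1.14, -0.97 and -1.40 on the fibrosis arrays, against -2.30, -1.88 and -2.38 on the normal arrays. The groups did not overlap. The difference was 0.98 ± 0.27 (adjusted p = 0.0321) with marked spots left out and 1.02 ± 0.25 (adjusted p = 0.0195) with them kept. The call was among the less stable ones, lost in 7 of 18 alternatives with marked spots left out and in 5 of 17 with them kept. The 5 were quantile normalization (0.77, adjusted p = 0.0574), the array median (0.66, adjusted p = 0.0675), and the fits without fibrosis array 1 (adjusted p = 0.0532), normal array 1 (adjusted p = 0.0724) or normal array 3 (adjusted p = 0.0999). With marked spots left out they were quantile normalization (0.73, adjusted p = 0.0819), the array median (0.62, adjusted p = 0.105), no filter on dim probes (adjusted p = 0.0747), and the fits without fibrosis array 1 (adjusted p = 0.0916), fibrosis array 2 (adjusted p = 0.0776), normal array 1 (adjusted p = 0.101) or normal array 3 (adjusted p = 0.138).

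Platelet markers did not pass the test in either direction. Of the 9 markers of platelets and megakaryocytes, 3 were tested and 0 were called. Their summed linear level relative to the 75th percentile was 0.141 to 0.270 in fibrosis and 0.116 to 0.157 in normal liver. The defining marker Gp9, a subunit of the platelet receptor for von Willebrand factor, differed by 0.60 (adjusted p = 0.138), and Itga2b had no probe with a name. Whether platelets in the tissue had a part in the Pf4 difference was not tested.

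Of the 9 neutrophil markers with a probe, 6 were tested with marked spots kept and 4 were higher in fibrosis, while Camp (1.59, adjusted p = 0.0659) and Fpr1 (0.51, adjusted p = 0.296) did not pass. The summed level of the 6 was 8.54 to 10.8 in fibrosis and 0.593 to 0.895 in normal liver, and Lcn2, which hepatocytes and epithelium also make, gave 62.3% to 91.2% of it in fibrosis and 37.6% to 57.8% in normal liver. Without Lcn2, a sum taken after seeing the data, it was 0.953 to 3.22 in fibrosis and 0.280 to 0.510 in normal liver, the lowest in fibrosis being array 2. The defining markers S100a8 and S100a9, calcium binding proteins that fill neutrophil cytosol, were higher by 2.98 (adjusted p = 0.00354) and 2.97 (adjusted p = 0.0115). Elane, the neutrophil elastase, was above background on 0 arrays. Their part in the chemokine differences was not tested.

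Of the ligands of Cxcr3, Cxcl11 alone was called, and differences between the 3 genes were not tested. Cxcl11 had levels of -0.78, -2.23 and -1.08 on the fibrosis arrays, against -0.05, 0.05 and 0.13 on the normal arrays. All fibrosis arrays were below all normal arrays, and the normal arrays lay close to each other (SD 0.767 in fibrosis and 0.0890 in normal liver, n = 3 each). The difference was -1.40 ± 0.37 (adjusted p = 0.0273) with marked spots kept, the only setting that tested it, and 6 of its 6 spots in fibrosis and 5 of 6 in normal liver were marked. The call was lost with scaling to the E1A spike-in controls (-1.09, adjusted p = 0.166) and without normal array 1 (-1.45, adjusted p = 0.0687), normal array 2 (-1.40, adjusted p = 0.0841) or normal array 3 (-1.36, adjusted p = 0.0980).

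Cxcl10 had levels of 0.62, -1.86 and 0.42 on the fibrosis arrays, against -0.16, -1.18 and -1.12 on the normal arrays, also with marked spots kept. Fibrosis array 2 was the lowest of all 6, and the other fibrosis arrays were the highest. The difference of 0.55 ± 0.64 did not pass the test (adjusted p = 0.571). It was 1.34 and called (adjusted p = 0.0393) without fibrosis array 2.

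Cxcl9 had levels of 0.56, -0.63 and 1.60 on the fibrosis arrays, against 0.79, 0.49 and 1.11 on the normal arrays. The fibrosis arrays lay on both sides of the normal ones. The difference was -0.84 ± 0.41 (adjusted p = 0.192) with marked spots left out, where fibrosis array 3 had no unmarked spot, and -0.29 ± 0.51 (adjusted p = 0.720) with them kept. Its sign turned, with marked spots kept, with E1A scaling (0.017) and without fibrosis array 2 (0.28).

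The arrays of a group differed among themselves in several of these genes. The SD over the 3 fibrosis arrays was 1.12 for Cxcl9, 1.38 for Cxcl10 and 1.36 for Cxcl13, which lie at the 96.4, 98.7 and 98.7 percentile of all 10864 genes. The normal arrays also spread widely for Cxcl10 (SD 0.577, 92.6 percentile) and Cxcl13 (SD 0.940, 98.5 percentile), and less for Cxcl9 (SD 0.307, 68.1 percentile). Fibrosis array 2 was the lowest fibrosis array for 5 of the 10 genes (Cxcl2, Cxcl9, Cxcl10, Cxcl11 and Cxcl13) and for 32.8% of all genes. Fibrosis array 1 was the highest for 7 of the 10 genes and for 24.5% of all genes. Fibrosis array 1 shared the first row of the slide with the 3 normal arrays, while fibrosis arrays 2 and 3 lay in the second row. The part of the slide row in these values was not tested.

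T and NK cell markers, whose cells bear Cxcr3, overlapped between the groups in their summed level. Of 13 markers, 10 were tested with marked spots kept and 1, Cd3g of the T cell receptor complex, was higher in fibrosis (0.97, adjusted p = 0.0475). Leaving marked spots out, 8 were tested, Cd3g did not pass (0.91, adjusted p = 0.140), and the adhesion molecule Cd2 was higher (0.94, adjusted p = 0.0438, against 0.57 and adjusted p = 0.133 with them kept). The summed level was 2.38 to 3.20 in fibrosis and 2.06 to 3.22 in normal liver. The defining marker Cd3d differed by 0.56 (adjusted p = 0.197), and Cd3e was above background on 2 fibrosis and 2 normal arrays. Their part in the Cxcl9, Cxcl10 and Cxcl11 values was not tested.

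Cxcl12 was lower in fibrosis with each of its probes, which were designed to different transcripts of the gene. Probe 1 read 2.31, 1.98 and 1.17 on the fibrosis arrays, against 3.24, 3.88 and 3.38 on the normal arrays. Probe 2 read -0.40, -0.03 and -0.82 on the fibrosis arrays, against 0.74, 0.65 and 0.35 on the normal arrays. Neither probe showed overlap between the groups. All spots of probe 1 were marked on every array. With them kept, probe 1 stood for the gene and differed by -1.68 ± 0.34 (adjusted p = 0.00915). The gene passed the test in all 18 alternatives run, among them fits that read probe 2 or the mean of the probes. The smallest difference, -0.99, was that of probe 2 (adjusted p = 0.0407 when fitted by itself). With marked spots left out, probe 2 stood for the gene, had no unmarked spot on fibrosis array 2 and differed by -1.16 ± 0.29 (adjusted p = 0.0257). That call was lost with E1A scaling (-0.67, adjusted p = 0.304), with no filter on dim probes (adjusted p = 0.0645) and without normal array 1 (-1.07, adjusted p = 0.0851), normal array 2 (-1.15, adjusted p = 0.0835) or normal array 3 (-1.27, adjusted p = 0.0642).

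Stromal and endothelial cells are known sources of Cxcl12. Of 11 stellate cell and fibroblast markers, 9 were tested with marked spots kept and 6 were higher in fibrosis, with a summed level of 9.09 to 19.9 in fibrosis and 2.82 to 4.14 in normal liver. The intermediate filament Des was higher by 3.01 (adjusted p = 0.000198) and the retinol enzyme Lrat differed by -0.11 (adjusted p = 0.812). Of 6 endothelial markers tested, 1, the growth factor receptor Kdr, was lower (-0.75, adjusted p = 0.0429), with a summed level of 9.13 to 12.5 in fibrosis and 13.5 to 14.7 in normal liver. The junction proteins Pecam1 and Cdh5 differed by 0.19 and 0.33 (adjusted p = 0.727 and 0.440). The part of these cells in the Cxcl12 difference was not tested.

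Cxcl13, the B cell attractant, had levels of -3.43, -6.14 and -5.10 on the fibrosis arrays, against -5.24, -3.59 and -3.63 on the normal arrays. The groups overlapped, the highest array of all was a fibrosis array, and fibrosis array 2 was not well above background. The difference of -0.74 ± 0.70 did not pass the test (adjusted p = 0.497). The summed level of 6 B and plasma cell markers was 0.237 to 0.417 in fibrosis and 0.273 to 0.360 in normal liver. The defining marker Ms4a1 had no probe with a name. The part of these cells in the Cxcl13 values was not tested.

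Cxcl16 had levels of 1.68, 1.65 and 1.28 on the fibrosis arrays, against -0.33, 0.06 and -0.46 on the normal arrays. All fibrosis arrays lay more than 1 log2 unit above all normal arrays. The difference was 1.87 ± 0.27 (adjusted p = 0.00299) with marked spots left out, where normal array 2 had no unmarked spot, and 1.78 ± 0.25 (adjusted p = 0.00152) with them kept. It passed the test in all 16 and 17 alternatives run on these fits, with differences of 1.43 to 2.20. Cxcl16 is known to be made by macrophages, hepatocytes and bile duct epithelium. Of 12 macrophage and Kupffer cell markers tested with marked spots kept, 0 were higher and 1, Cd14, was lower (-1.33, adjusted p = 0.0103), with a summed level of 42.2 to 46.8 in fibrosis and 35.6 to 41.2 in normal liver. The defining markers Cd68 and Clec4f differed by 0.24 and 0.30 (adjusted p = 0.460 and 0.418). The part of these cells in the Cxcl16 difference was not tested.

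Cholangiocyte markers were higher in fibrosis for 8 of 9 genes tested with marked spots kept, with a summed level of 9.35 to 11.1 in fibrosis and 0.899 to 1.20 in normal liver. The duct keratins Krt19 and Krt7 were higher by 3.49 (adjusted p = 6.21e-05) and 5.65 (adjusted p = 0.000202). Krt7 was above background on every fibrosis array but on only 1 normal array. Its difference is thus measured partly against normal signals not above background. Hepatocyte markers were lower for 2 of 10 genes, Cyp2e1 and G6pc1, with a summed level of 86.4 to 116 in fibrosis and 155 to 164 in normal liver, and the defining markers Alb and Apoa1 were above background on every array. These shifts run beside every chemokine difference above, and their part in them was not tested.

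**Figure D2:**
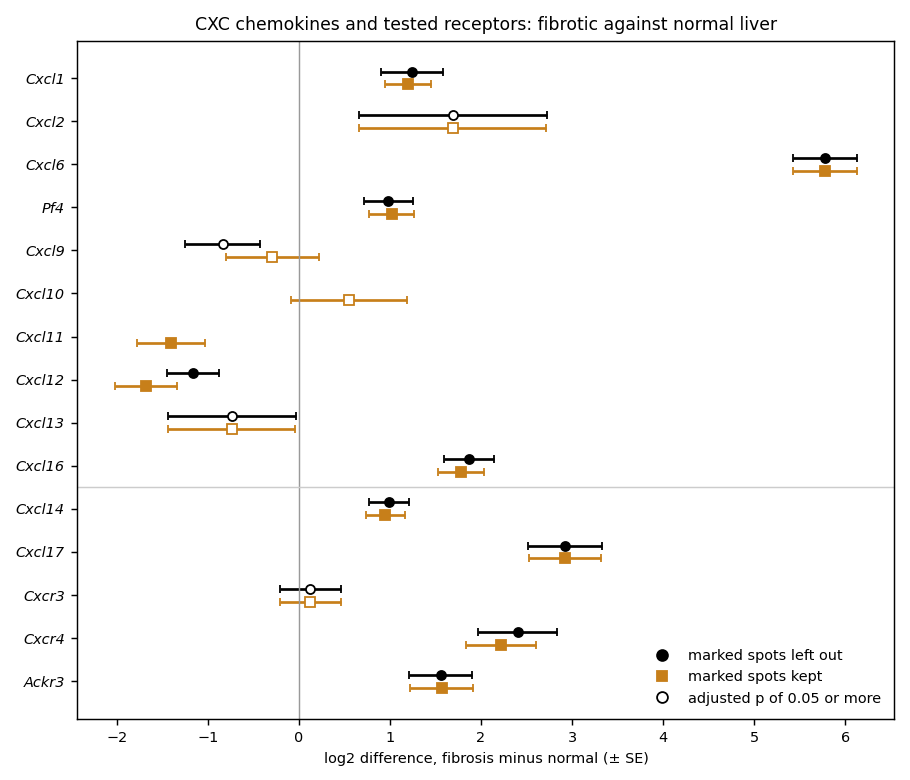
Log2 difference, fibrosis minus normal, with its SE (horizontal axis) for the CXC chemokines and their tested receptors and relatives, from the fits with marked spots left out (circles) and kept (squares). Filled symbols passed the adjusted p threshold of 0.05. The Cxcl6 and Cxcl17 values are measured against normal signals not above background (bounds of 3.63 and 2.15), and Cxcl10 and Cxcl11 have a value in 1 of the fits only.

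Of 8 receptor genes, 7 had a probe with a name and 3 were tested. Of these, 2 were higher in fibrosis, where 18.2% of all genes were with marked spots left out. Their median difference was 1.56 against 0.03 over all genes. Cxcr4, the receptor through which Cxcl12 guides leukocytes, had levels of -1.81, -1.55 and -2.27 on the fibrosis arrays, against -4.75, -3.33 and -4.22 on the normal arrays. The groups did not overlap, and the difference was 2.22 ± 0.38 (adjusted p = 0.00435) with marked spots kept. It was 2.40 ± 0.43 (adjusted p = 0.00729) with marked spots left out, where fibrosis array 3 had no unmarked spot. Ackr3, an atypical receptor that takes up Cxcl12 and lowers its concentration, had levels of -1.69, -2.18 and -1.96 on the fibrosis arrays, against -4.14, -2.88 and -3.50 on the normal arrays. It differed by 1.56 ± 0.35 (adjusted p = 0.0134) with marked spots left out and by 1.57 ± 0.34 (adjusted p = 0.0123) with them kept. With marked spots kept the call was lost without normal array 3 (1.57, adjusted p = 0.0507). Both Cxcl12 receptors were thus higher in the livers in which Cxcl12 itself was lower.

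Cxcr3, the receptor of Cxcl9, Cxcl10 and Cxcl11, had levels of -3.22, -2.87 and -4.01 on the fibrosis arrays, against -3.76, -3.19 and -3.52 on the normal arrays. The groups overlapped and the difference was 0.13 ± 0.34 (adjusted p = 0.828), with a sign that turned under quantile, array median and normexp settings. Cxcr1 and Cxcr5 were above background on 0 arrays, Cxcr2, the receptor of Cxcl1, Cxcl2 and Cxcl6, on 1 fibrosis and 0 normal arrays, and Cxcr6 on 2 fibrosis and 2 normal arrays. Cxcr1, Cxcr2, Cxcr5 and Cxcr6 were therefore not tested, and no difference was estimated for the receptors of Cxcl13, Cxcl16 and the Cxcr2 ligands. Ackr1 had no probe with a name.

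Of the 5 other CXC chemokine names looked up, 3 had a probe, and both genes that were tested were higher in fibrosis. Cxcl17, a mucosal chemokine, had levels of -3.16, -4.73 and -3.91 on the fibrosis arrays, against -6.47, -7.04 and -7.06 on the normal arrays. It was above background on all 3 fibrosis and 0 normal arrays, with mean levels of -3.93 in fibrosis and -6.86 in normal liver. That difference, 2.92, gave adjusted p = 0.00141 (limma). Cxcl17 was at least 4.44-fold higher in fibrosis, a bound that was not tested itself. With normexp its log2 difference was 1.39 (adjusted p = 0.00532), which is below that bound. Cxcl14, an epithelial chemokine, had levels of -0.82, -1.07 and -1.09 on the fibrosis arrays, against -1.93, -1.90 and -1.996 on the normal arrays. It differed by 0.99 ± 0.22 (adjusted p = 0.0134) with marked spots left out and by 0.95 ± 0.22 (adjusted p = 0.0146) with them kept. With marked spots left out the call was lost with the array median (0.63, adjusted p = 0.0687) and without fibrosis array 1 (adjusted p = 0.0521), normal array 2 (adjusted p = 0.0522) or normal array 3 (adjusted p = 0.0721). Keeping marked spots, it was also lost without normal array 1 (adjusted p = 0.0520), and again with the array median (0.59, adjusted p = 0.0700) and without normal array 2 (adjusted p = 0.0622) or normal array 3 (adjusted p = 0.0793). Ppbp, a second platelet chemokine, was above background on 1 fibrosis and 1 normal array, and Cxcl3 had no probe with a name. No probe matched the name Cxcl5, and the gene order from Cxcl2 to Cxcl6 on chromosome 14 lists no gene so named. Whether the rat has a separate gene of that name was not checked.

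Genes of the interferon gamma pathway, which induces Cxcl9, Cxcl10 and Cxcl11, were tested for 8 of 15 genes with marked spots left out. Of these, 2 were higher and 0 lower, where 18.2% and 5.77% of all genes were. The median was 0.55 against 0.03 over all genes. In the fit with marked spots kept, 11 were tested, and 3 were higher and 0 lower, where 15.8% and 9.12% of all genes were. The median there was 0.65 against -0.07. Gbp2, an interferon induced GTPase, was higher by 1.84 ± 0.28 (adjusted p = 0.00335) with marked spots left out and by 1.43 ± 0.37 (adjusted p = 0.0236) with them kept. The Gbp2 call with marked spots kept was lost with the array median (1.07, adjusted p = 0.0510) and without fibrosis array 1 (adjusted p = 0.0750), normal array 1 (adjusted p = 0.0555), normal array 2 (adjusted p = 0.0716) or normal array 3 (adjusted p = 0.0958). Ciita, the activator of MHC class II genes, was higher by 1.22 ± 0.27 (adjusted p = 0.0131), a call lost with quantile normalization (0.79, adjusted p = 0.0720) and without normal array 1 (1.08, adjusted p = 0.0536). Irf1, a transcription factor of the pathway, differed by 0.0093 (adjusted p = 0.987) with marked spots kept. Ifng itself, Il12a and Il12b were above background on 0 arrays.

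Genes of the NF-kB pathway, which drives Cxcl1 and Cxcl2 in inflamed tissue, were tested for 10 of the 12 with a probe. With marked spots left out 2 were higher and 0 lower, where 18.2% and 5.77% of all genes were. The higher count is thus close to the share over all genes. The median was 0.29 against 0.03 over all genes. With marked spots kept, 11 were tested, and 3 were higher and 1 lower, where 15.8% and 9.12% of all genes were. The median there was 1.05 against -0.07. Nfkb2, a subunit of the factor, was higher by 2.37 ± 0.47 (adjusted p = 0.00803). Tnf, a cytokine that activates the pathway, was higher by 1.53 ± 0.45 (adjusted p = 0.0409), and lost the call with quantile normalization (1.11, adjusted p = 0.128), the array median (1.18, adjusted p = 0.0833), normexp (0.98, adjusted p = 0.0683) and no filter on dim probes (adjusted p = 0.0719). It was also lost without fibrosis array 2 (adjusted p = 0.0974), fibrosis array 3 (adjusted p = 0.0966), normal array 2 (adjusted p = 0.123) or normal array 3 (adjusted p = 0.140). Birc3, an inhibitor of apoptosis induced by the pathway, was higher by 1.58 ± 0.22 (adjusted p = 0.00168) with marked spots kept. Il1a, a cytokine upstream of it, was called lower at -1.74 ± 0.51 (adjusted p = 0.0382) with marked spots kept. Leaving them out, a dimmer probe stood for Il1a, and the difference of -0.80 ± 0.64 did not pass (adjusted p = 0.416). The Il1a call with marked spots kept was lost without fibrosis array 2 (adjusted p = 0.103), fibrosis array 3 (adjusted p = 0.0893), normal array 2 (adjusted p = 0.131) or normal array 3 (adjusted p = 0.133). That call was also lost with E1A scaling (-1.43, adjusted p = 0.129) and with no filter on dim probes (adjusted p = 0.0616). The mean (-1.27, adjusted p = 0.131) or the lowest (-0.80, adjusted p = 0.405) of its probes in place of the brightest lost it too. Il17a was above background on 0 arrays.

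The genes that organise lymphoid tissue beside Cxcl13 were tested for 4 of 9 with marked spots left out, with 0 called in either direction. With marked spots kept 6 were tested and 3 were higher, where 15.8% of all genes were. Ccl21, which draws T cells and dendritic cells through Ccr7, was higher by 2.92 ± 0.25 (adjusted p = 0.00012) with marked spots kept. The lymphotoxin subunit Ltb was higher by 2.00 ± 0.29 (adjusted p = 0.00188) with marked spots kept. Ccl19, the other Ccr7 ligand, differed by 1.28 ± 0.40 (adjusted p = 0.0659) with marked spots left out and was higher by 1.62 ± 0.35 (adjusted p = 0.0118) with them kept. With marked spots left out it passed with E1A scaling (1.63, adjusted p = 0.0261), normexp (1.22, adjusted p = 0.0465), trend and robust eBayes (adjusted p = 0.0340) and array weights (1.12, adjusted p = 0.0298). Il7, a lymphocyte growth factor, differed by 0.81 ± 0.41 (adjusted p = 0.200) with marked spots left out, and passed the test without fibrosis array 2 (1.21, adjusted p = 0.0475) and with array weights (1.11, adjusted p = 0.0374).

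**Figure D3:**
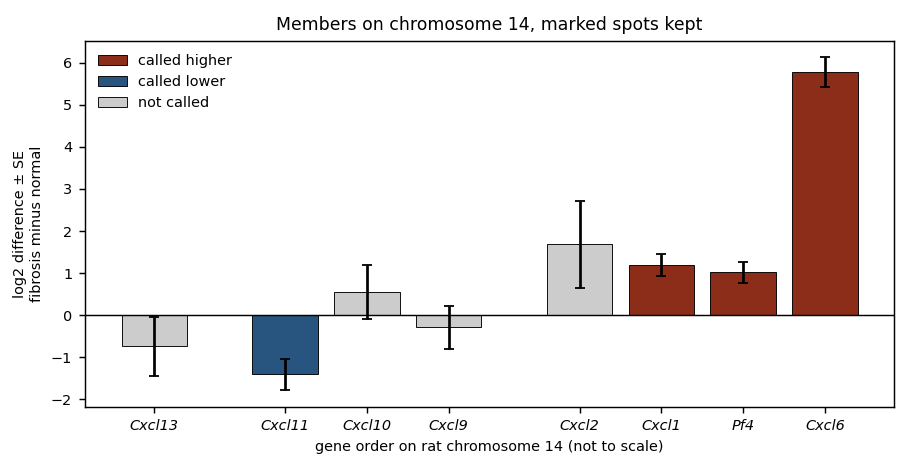
Log2 difference, fibrosis minus normal, with its SE (vertical axis) for the 8 CXC chemokine genes of rat chromosome 14, in their order along the chromosome (horizontal axis, not to scale), with marked spots kept. Cxcl11 was called lower at -1.40 and its neighbours Cxcl10 and Cxcl9 were not called, while Cxcl1, Pf4 and Cxcl6 were called higher. The Cxcl6 bar, 5.78, is measured against normal signals not above background, where the bound is 3.63.

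Along chromosome 14, Cxcl11, Cxcl10 and Cxcl9 follow each other with no other gene between them. Their differences with marked spots kept were -1.40, 0.55 and -0.29, and the gene next to Cxcl9, Sdad1, differed by 0.42 (adjusted p = 0.349). In the cluster from Cxcl2 to Cxcl6 the differences were 1.69 for Cxcl2, 1.20 for Cxcl1, 1.02 for Pf4 and at least 3.63 for Cxcl6 (the bound, with 3.38 under normexp), and Mthfd2l, the gene next to Cxcl2, differed by 1.09 (adjusted p = 0.101). Cxcl3 and Ppbp also lie within that cluster and gave no value.

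Likeness of pattern was read as Pearson r over the 6 arrays among 5505 genes with an unmarked value on each, which holds for the called genes Cxcl6 and Pf4. The arrays are 3 of fibrosis and 3 of normal liver, so r includes the group difference, and 434 genes reached an r over 0.95 with Cxcl6 and 155 with Pf4. The genes most like Cxcl6 were Rnf180 (r = 0.999) and Aldh18a1 (r = 0.998), and those most like Pf4 were Tmem164 (r = 0.998) and Gfra2 (r = 0.990).

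**Figure D4:**
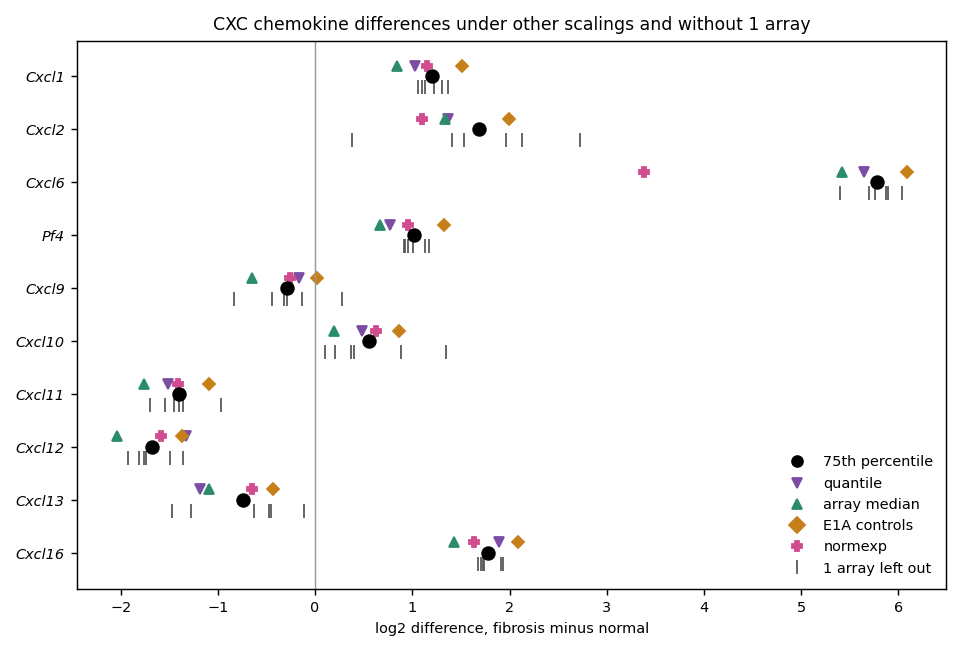
Log2 difference, fibrosis minus normal (horizontal axis), of each CXC chemokine with marked spots kept, under the 75th percentile scale (black), quantile normalization, the array median, E1A spike-in scaling and normexp background correction (coloured symbols), and with 1 array left out (ticks). Cxcl9 alone has values on both sides of 0, and the Cxcl6 value fell to 3.38 with normexp.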

How the data were processed

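The deposited values are spot intensities of 1-colour (Cy3) arrays on a linear scale, written by Agilent Feature Extraction 11.5.1.1, with background subtracted in the processed signal, per the file headers. No scaling between arrays is recorded there. Slide and scan give no batch to separate, as the 6 arrays shared 1 slide and 1 scan. The replicate numbers follow record order and pair no arrays. Where the labels do not say more, p-values measure the spread between these arrays.

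The 75th percentile of each array was subtracted from the log2 processed signals. Control spots and spots marked by the software as non-uniform or as population outliers were left out, and a second fit kept the marked spots. Replicate spots were averaged. Tested probes had a value on 2 or more arrays per group and, on every array of 1 group or both, at least 0.5 of their spots well above background. The probe with the highest mean stood for its gene. Accessions without version named 18355 of 30367 probes through the RefSeq table of GRCr8, and 12012 stayed unnamed. The comparison used lmFit and eBayes of limma 3.58.1 under R 4.3.3, adjusted over all tested genes, and the script was tested on simulated data. Where a probe was not above background on any normal array, the fold is a lower bound. It sets the fibrosis mean against a normal mean in which each array enters with its dimmest well above background probe or the probe itself, whichever is brighter.

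The chemokine genes, the pathway and marker lists, the naming rule and the tests were chosen with earlier results of these data known. The rule names all 10 chemokines, all measured receptors and, of each other pathway list, up to 2 called genes in each direction, or those with the smallest p to complete a pair. Genes named outside it (the cell type markers, Irf1, Ccl19 with marked spots kept, genes listed as not detected and the neighbours on chromosome 14) were chosen after their values were seen. So was the use of the same rule in the fit with marked spots kept. Normexp (offset 50) was run on the median foreground and background signals. Cross-hybridisation between probes of related chemokines was not tested, and protein sequences were not used here. Some genes of the lists are not reported here.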

Additional observations from a re-analysis of the deposited data

How the results depend on the processing

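With marked spots left out, 429 genes were lower, against 677 with quantile normalization, 1170 with the array median, 110 with E1A scaling, 249 with no dim filter, 991 with marked spots kept and 899 with array weights. The 4 chemokines called higher were 2 with quantile normalization, the array median or no dim filter, and the 1 lower was 0 with E1A scaling or no dim filter and 2 with marked spots kept. Leaving out 1 array gave 890 to 1492 genes higher and 142 to 524 lower, the lowest of both without normal array 3 (189 and 211 lower without normal arrays 1 and 2), and 1 to 4 chemokines higher and 0 to 1 lower. With marked spots kept, 991 lower genes were 2556 with the array median, 240 with E1A scaling, 651 with no dim filter and 1999 with array weights, and 1 chemokine was lower with E1A scaling. Leaving out 1 array there gave 1115 to 1959 genes higher, 344 to 1264 lower (lowest of both without normal array 3, with 573 and 409 lower without normal arrays 1 and 2), 2 to 5 chemokines higher and 1 to 2 lower. The cause was not tested. Signs turned for Cxcl9 with marked spots kept (0.017 with E1A scaling, -0.84 to 0.28 leaving out 1 array, above 0 without fibrosis array 2). In both fits Cxcr3 turned to -0.25 (quantile), -0.23 (array median), -0.040 (normexp), and -0.12 to 0.45 leaving out 1 array (below 0 without fibrosis array 2 or normal array 1). Mmp14 turned to 0.26 (quantile), 0.27 (E1A), and -0.14 to 0.059 leaving out 1 array (above 0 without fibrosis array 1 or normal array 1). Adam17 turned to 0.21 (E1A), 0.46 (array weights) and -0.49 to 0.41 (above 0 without fibrosis array 3). The median of all genes, 0.03, moved to -0.13 (quantile), -0.33 (array median) and 0.35 (E1A), and the share of calls that were higher was 75.9%, against 59.7%, 46.2% and 93.2%. With marked spots kept the median was -0.07, against -0.11, -0.42 and 0.24, and the share was 63.4%, against 56.6%, 34.0% and 88.8%. Over the single genes named, 646 of the alternative values kept direction and call, 61 lost the call, 8 gained it and 19 turned sign. An exact two-sided permutation test over 20 splits cannot go below 0.1 with 3 arrays a group. It gave that value for Cxcl1, Cxcl6, Cxcl11, Cxcl12, Cxcl16 and Pf4. No paired analysis was possible because the labels give no replicate numbers that tie a fibrosis rat to a normal one. Signal limits Cxcr1, Cxcr2, Cxcr5, Cxcr6 and Ppbp, and a probe near background can hide a difference.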

Other observations

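Proteases that trim chemokines or shed them from the cell surface were looked up as a further group of 10 genes, all with a probe. With marked spots left out 2 were tested and 0 called, with a median difference of -0.07 against 0.03 over all genes. With marked spots kept 6 were tested, and 2 were higher in fibrosis and 0 lower, where 15.8% and 9.12% of all genes were. The median there was -0.06 against -0.07. Mmp12, the macrophage metalloelastase, had levels of 0.82, 1.47 and -0.23 on the fibrosis arrays, against -5.42, -5.67 and -5.73 on the normal arrays, and was higher by 6.29 ± 0.41 (adjusted p = 4.43e-05, limma). Mmp2, gelatinase A, which cuts Cxcl12 near its start, had levels of 2.00, 1.91 and 1.53 on the fibrosis arrays, against -0.20, 0.10 and -0.91 on the normal arrays, and was higher by 2.15 ± 0.31 (adjusted p = 0.00178). The groups did not overlap for either gene. Dpp4, a peptidase that shortens Cxcl10, Cxcl11 and Cxcl12, differed by -0.49 ± 0.22 (adjusted p = 0.145).

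The sheddase Adam17 differed by -0.10 ± 0.44 (adjusted p = 0.903) and the membrane protease Mmp14 by -0.04 ± 0.23 (adjusted p = 0.920) with marked spots left out. Adam10, which is known to release Cxcl16 from the cell surface, was above background on 1 fibrosis and 0 normal arrays. The neutrophil protease Ctsg and the collagenase Mmp8 were each above background on 1 fibrosis and 0 normal arrays, and Mmp9, gelatinase B, on 2 fibrosis and 0 normal arrays.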
